A study of Homo sapiens with 6 samples.

Results

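Kinesins are motor proteins that hydrolyse ATP to walk along microtubules or to take their ends apart. The 36 members described here, of 56632 genes in the tables, are rows whose Ensembl identifiers carry kinesin symbols on a list of gene names. The symbols run from KIF1A to KIF27 and from KIFC1 to KIFC3, without KIF2B, KIF4B, KIF6, KIF17, KIF19 and KIF25. The kinesin CENPE is also outside the member list. All 36 matched a single identifier. Poly(A) RNA came from HCT116, an established human colorectal carcinoma line, transfected with pooled siRNAs that target MATR3 (the siMatrin3 group) or with a control siRNA without a target (siCTRL). Both groups were transfected more than once, 72 h apart, and harvested 48 h after the last transfection according to the labels, while the study's methods word the time of harvest differently. Each group had 3 libraries, described in the study's methods as biological triplicates, and the knockdown was transient in a line with no other engineered allele in the labels. Matrin3, encoded by MATR3, is a nuclear protein that binds RNA and acts on splicing, and the study asked how its loss affects the mitotic spindle.

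A first group of kinesins works mainly in dividing cells, where its members push spindle poles apart, move chromosomes, shorten microtubules and build the midzone that is cut at cytokinesis. Their mRNAs are known to accumulate in G2 and mitosis, and their promoters often pair a CCAAT box, bound by NF-Y, with a cell cycle genes homology region (CHR, TTTGAA or TTCGAA), bound by the DREAM and MuvB complexes. A second group carries organelles, vesicles, proteins and mRNAs in interphase cells and along axons, and the remaining motors act in cilia or signalling or have a less settled role. The list was divided by these roles into 13 mitotic, 16 transport and 7 cilium and other kinesins.

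The promoters of the 4 mitotic kinesins that rose after Matrin3 knockdown are shown because they hold these motifs. Each runs from 150 bases before to 30 bases after the RefSeq start in GRCh38.p14, 5′ to 3′ on the gene's strand. Capitals mark a match to a CHR or to a CCAAT box. Where the match lies on the other strand, the CHR reads TTCAAA here, and the CCAAT box reads ATTGG.
KIF11, chr10:92592980-92593159, + strand: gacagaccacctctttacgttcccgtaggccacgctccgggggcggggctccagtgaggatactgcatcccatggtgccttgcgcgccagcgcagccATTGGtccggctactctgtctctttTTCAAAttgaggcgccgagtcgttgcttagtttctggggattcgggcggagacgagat
KIF20B, chr10:89701440-89701619, + strand: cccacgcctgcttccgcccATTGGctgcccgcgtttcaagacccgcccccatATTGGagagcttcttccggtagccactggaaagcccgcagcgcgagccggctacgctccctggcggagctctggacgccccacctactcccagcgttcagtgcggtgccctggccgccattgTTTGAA
KIF22, chr16:29790601-29790780, + strand: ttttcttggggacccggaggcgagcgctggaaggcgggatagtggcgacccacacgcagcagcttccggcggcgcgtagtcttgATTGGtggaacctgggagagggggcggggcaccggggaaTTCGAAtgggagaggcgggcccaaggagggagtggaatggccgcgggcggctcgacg
KIF23, chr15:69414199-69414378, + strand: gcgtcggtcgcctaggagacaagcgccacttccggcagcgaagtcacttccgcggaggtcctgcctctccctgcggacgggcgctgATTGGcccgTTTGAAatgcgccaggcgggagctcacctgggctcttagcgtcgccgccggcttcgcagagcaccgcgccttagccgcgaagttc

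In KIF11 the CHR began 28 bases before the start on the other strand and the CCAAT box 53 bases before it. In KIF22 a TTCGAA began 27 bases and a CCAAT box 66 bases before the start, and in KIF23 the motifs began 55 and 64 bases before the start. KIF20B differed from these 3 in that its TTTGAA matches lay after the start, with CCAAT boxes 131 and 98 bases before it. The full windows of 250 bases before to 50 after the start were searched on both strands. A CHR was found in 11 of 14 promoters of mitotic kinesins (78.6%, from 10 genes) and in 1 of 16 of transport kinesins (6.25%). It was in 63.9% of 36 promoters of G2/M genes other than kinesins and in 16.4% of all 35116 promoters. TTTGAA was in 15.2% of all promoters, TTCGAA in 1.45% and CCAAT in 34.6%, each counted whether or not another motif was present. Both a CHR and a CCAAT box were found in 9 of the 14 mitotic promoters (64.3%) and in 1 transport promoter. They were in 55.6% of the promoters of the other G2/M genes and in 6.38% of all. KIF4A, KIF14, KIF18A, KIF18B and KIFC1 also held both and were not among the 4 that rose. KIF2A and KIF2C held neither, KIF20A held CCAAT only and KIF15 held TTTGAA only. Promoters were present for 29 of the 36 members, and a match is a description of letters and not of binding.

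The knockdown was checked first. MATR3 (ENSG00000015479) stood at 186.39, 180.25 and 176.46 TPM (a level scaled by transcript length and to the same sum in every library) in the siCTRL libraries and at 95.17, 112.05 and 110.67 TPM in the siMatrin3 libraries. It fell by 0.93 on the log2 scale (SE 0.0647, edgeR adjusted p = 7.67e-05), which is a fitted change of -47.5%, and was lowest in siMatrin3 replicate 1. Libraries held 40808173 to 54185650 expected counts, and 14033 to 14368 genes reached 1 TPM. Of 16786 genes tested, 11.0% passed an edgeR adjusted p under 0.05, with 5.05% higher and 5.97% lower in siMatrin3. With upper quartile scaling the split was 636 higher and 1146 lower in place of 847 and 1002. Of 6 epithelial markers 5 reached 1 TPM (VIL1 did not), with summed levels of 2940 to 3090 TPM in siCTRL and 2680 to 2910 in siMatrin3. Of 12 markers of fibroblasts, leukocytes and endothelium 2 reached 1 TPM, COL1A1 and CD68, and COL1A2, DCN, LUM and PTPRC were at 0 in all libraries.

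All 36 members passed the filter on low counts, and 33 of them had a mean of at least 1 TPM. The order of mean TPM over the 6 libraries was led by KIF22 (61.2), KIF1C (59.8), KIF5B (54.3), KIFC2 (53.9), KIF2C (38.8) and KIFC1 (36.3), a mixture of mitotic and transport motors. The first 4 of these lay within the range between libraries of each other, since KIF22 ran from 53.32 to 68.36 TPM and KIF5B from 51.67 to 59.64. KIF26B (0.405), KIF1A (0.227) and KIF7 (0.223) were at the bottom. HCT116 thus expressed the ubiquitous KIF5B at 54.3 TPM and its relatives KIF5A and KIF5C, known mainly from neurons, at 2.19 and 1.65 TPM. The mitotic kinesins summed to 268 ± 10.1 TPM in siCTRL (SD, n = 3) and the transport kinesins to 272 ± 4.38.

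After Matrin3 knockdown, 5 of the 36 kinesins rose and 2 fell. The 4 mitotic kinesins KIF11, KIF20B, KIF22 and KIF23 rose by 11.0% to 18.1%, and the axonal motor KIF1A rose from a level near 0. KIF13B and KIFC3, both transport kinesins, fell by 15.2% and 15.4% in counts. The 7 called members were 19.4% of the 36, against 11.0% of all genes, the higher ones 13.9% against 5.05% and the lower ones 5.56% against 5.97%. These shares include KIF1A, which passed the filter on low counts through the siMatrin3 libraries, where it is high. A filter of 1 CPM in 3 libraries removed KIF1A and left 4 members higher and 2 lower. In CPM (counts scaled to the size of the library) the groups did not overlap for 8 members that were higher and 7 that were lower in siMatrin3, where 15.5% of all genes were separated in each direction. A total of 7 calls became 4 without siCTRL replicate 1, 3 without siCTRL replicate 3, 4 without siMatrin3 replicate 2 and 2 without siMatrin3 replicate 3. It was 1 with limma on log2(TPM + 1), and that call was KIF1A.

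**Figure D1:**
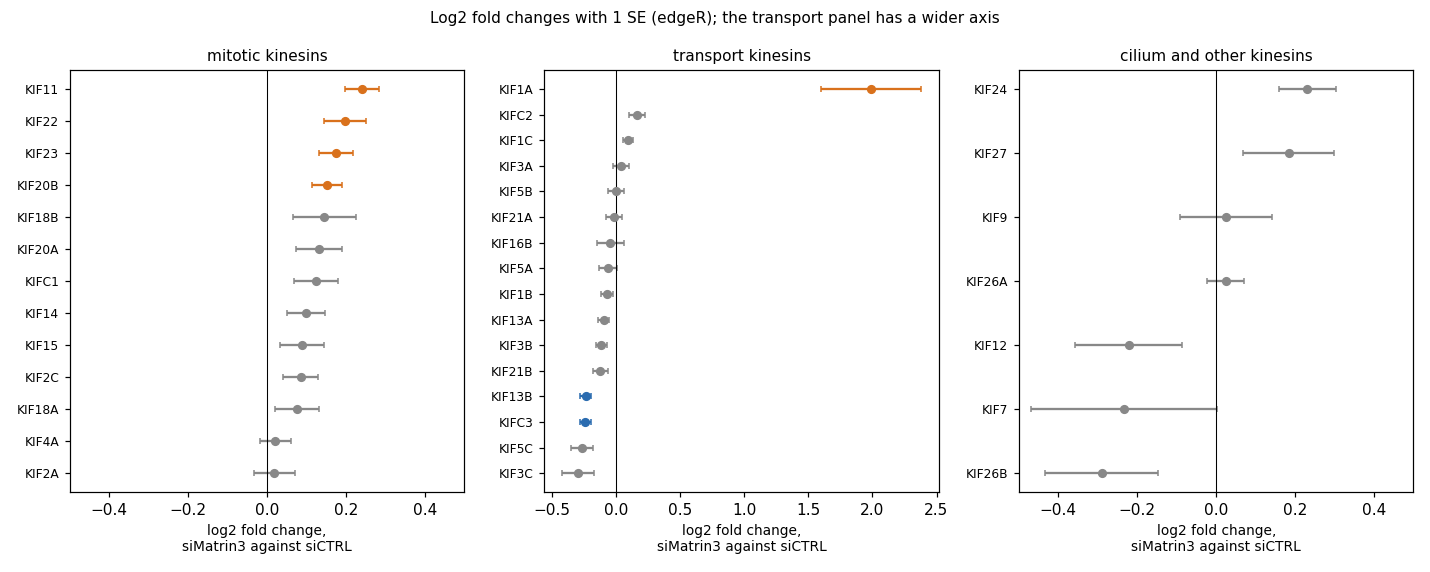
Log2 fold change of each kinesin, siMatrin3 against siCTRL, with bars of 1 SE derived from the edgeR test (3 libraries a group), in a panel for each class. Orange points rose, blue points fell and grey points did not pass the threshold. All 13 mitotic kinesins lie right of 0 between 0.02 and 0.24, and 12 of 16 transport kinesins lie left of it, with KIF1A far to the right at 1.99 on a wider axis.

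Among the mitotic kinesins, KIF11, KIF20B, KIF22 and KIF23 passed the threshold. Of 13 members 4 rose, 0 fell and 9 did not pass the threshold (30.8% higher, against 5.05% of all genes). Their median log2 fold change was 0.12, against -0.0011 over all genes tested, and all 13 estimates were above 0, where 49.7% of all genes were. The sign was not stable for KIF2A, which turned with upper quartile scaling, the length offset, limma on TPM and without siCTRL replicate 2, siMatrin3 replicate 1 or replicate 1 of both groups, nor for KIF4A, which turned with limma on TPM. Leaving out siCTRL replicate 1, siCTRL replicate 3, siMatrin3 replicate 2 or siMatrin3 replicate 3 each left 1 called mitotic kinesin, against 1 to 3 called transport kinesins in those fits, and the median stayed between 0.0909 and 0.145 in all leave-one-out fits.

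KIF11, also named Eg5, is the tetrameric motor that slides antiparallel microtubules apart and makes the spindle bipolar. KIF11 (ENSG00000138160) was at 9.74, 9.48 and 9.54 TPM in siCTRL and at 10.56, 11.27 and 11.70 TPM in siMatrin3. The groups did not overlap, and the closest libraries were siCTRL replicate 1 and siMatrin3 replicate 1. It rose from 9.59 ± 0.136 to 11.2 ± 0.576 TPM, with a fitted change in counts of 0.24 on the log2 scale (SE 0.0436, edgeR adjusted p = 0.00777). KIF11 kept its call without any single library, and lost it with limma on log2(TPM + 1) at an adjusted p of 0.124, over a range of 0.000147 to 0.124 in all alternatives. Its backup motor KIF15 had a log2 fold change of 0.09 (edgeR adjusted p = 0.353), with levels of 8.27 ± 1.04 and 8.43 ± 0.711 TPM that overlapped. KIFC1, the minus-end motor that focuses and clusters poles, was at 33.76, 36.31 and 33.80 TPM in siCTRL and at 34.57, 40.12 and 39.30 TPM in siMatrin3. Its siMatrin3 replicate 1 lay inside the siCTRL range, and its log2 fold change of 0.12 (SE 0.0554) had an edgeR adjusted p of 0.187.

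KIF22, or Kid, is a chromokinesin that binds DNA and pushes chromosome arms away from the poles. KIF22 (ENSG00000079616) was at 53.32, 60.42 and 57.59 TPM in siCTRL and at 61.96, 65.59 and 68.36 TPM in siMatrin3. All 3 siMatrin3 libraries were above all siCTRL libraries, with siMatrin3 replicate 1 and siCTRL replicate 2 closest. It rose from 57.1 ± 3.57 to 65.3 ± 3.21 TPM, with a fitted change in counts of 0.20 on the log2 scale (SE 0.0535, edgeR adjusted p = 0.0405). KIF4A, the chromokinesin that also works with PRC1 in the midzone, was at 12.0 ± 0.405 and 11.9 ± 0.41 TPM, with a log2 fold change of 0.02 (edgeR adjusted p = 0.786). The near copy KIF4B held 0 to 4.01 expected counts a library, and reads shared by KIF4A and KIF4B were divided by estimation.

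Among the motors of the midzone and midbody KIF23 and KIF20B passed the threshold and KIF20A and KIF14 did not, and the difference between these pairs was not tested. KIF23, or MKLP1, is the motor subunit of centralspindlin, which bundles midzone microtubules and recruits the cytokinesis machinery. KIF23 (ENSG00000137807) was at 24.09, 26.65 and 23.98 TPM in siCTRL and at 29.35, 30.28 and 28.75 TPM in siMatrin3. The groups did not overlap, and the means were 24.9 ± 1.51 and 29.5 ± 0.771 TPM. Its log2 fold change was 0.18 (SE 0.0437, edgeR adjusted p = 0.0297). KIF20B, which acts in midbody maturation and abscission, was even across siCTRL at 8.31, 8.28 and 8.30 TPM and stood at 9.12, 8.82 and 9.26 TPM in siMatrin3. KIF20B (ENSG00000138182) rose by 11.0%, from 8.30 ± 0.0153 to 9.07 ± 0.225 TPM, with a fitted change in counts of 0.15 on the log2 scale (SE 0.0379, edgeR adjusted p = 0.0303). KIF20A, or MKLP2, which brings the chromosomal passenger complex to the midzone, had a log2 fold change of 0.13 (edgeR adjusted p = 0.181), from 19.3 ± 0.376 to 21.3 ± 2.11 TPM. KIF14, which anchors citron kinase at the midbody, had one of 0.10 (edgeR adjusted p = 0.233), from 5.27 ± 0.332 to 5.55 ± 0.167 TPM. KIF20B lost its call without any one of the 6 libraries (adjusted p 0.058 to 0.116) and with DESeq2 (0.062), over a range of 0.0169 to 0.311 in all alternatives. KIF22 and KIF23 lost theirs without siCTRL replicate 1, siCTRL replicate 3, siMatrin3 replicate 2 or siMatrin3 replicate 3. The edgeR adjusted p was then 0.102 to 0.146 for KIF22 and 0.066 to 0.105 for KIF23, and both kept their call with DESeq2. They also lost it with upper quartile scaling. KIF20B, KIF22 and KIF23 all lost their call with limma on TPM, and KIF20B and KIF22 with the transcript length offset.

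None of the 4 mitotic kinesins that shorten microtubules passed the threshold. KIF2C, or MCAK, the depolymeriser of kinetochores and plus ends, was at 37.45, 39.81 and 36.45 TPM in siCTRL and at 38.61, 40.66 and 39.72 TPM in siMatrin3. The TPM ranges overlapped, the CPM of all siMatrin3 libraries lay above siCTRL, and the log2 fold change was 0.09 (SE 0.044, edgeR adjusted p = 0.254). KIF18B, which shortens astral microtubules with EB1, was at 18.57, 22.07 and 21.18 TPM against 21.04, 24.11 and 23.68 TPM. Its log2 fold change was 0.15 (SE 0.0798, edgeR adjusted p = 0.287), with overlapping groups. Among the alternatives KIF18B passed only with the replicate number as a block (edgeR adjusted p = 0.0214). KIF18A, which dampens the movement of chromosomes at the metaphase plate, had a log2 fold change of 0.08 (edgeR adjusted p = 0.427), and KIF2A, which acts at spindle poles, one of 0.02 (edgeR adjusted p = 0.864). Of the kinesins outside the member list, 3 of 7 passed the filter. KIF17 and KIF19 had log2 fold changes of -0.03 and 0.10 (edgeR adjusted p = 0.929 and 0.854). The kinetochore motor CENPE was at 4.96 ± 0.29 and 4.95 ± 0.211 TPM, with a log2 fold change of 0.03 (edgeR adjusted p = 0.78).

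**Figure D2:**
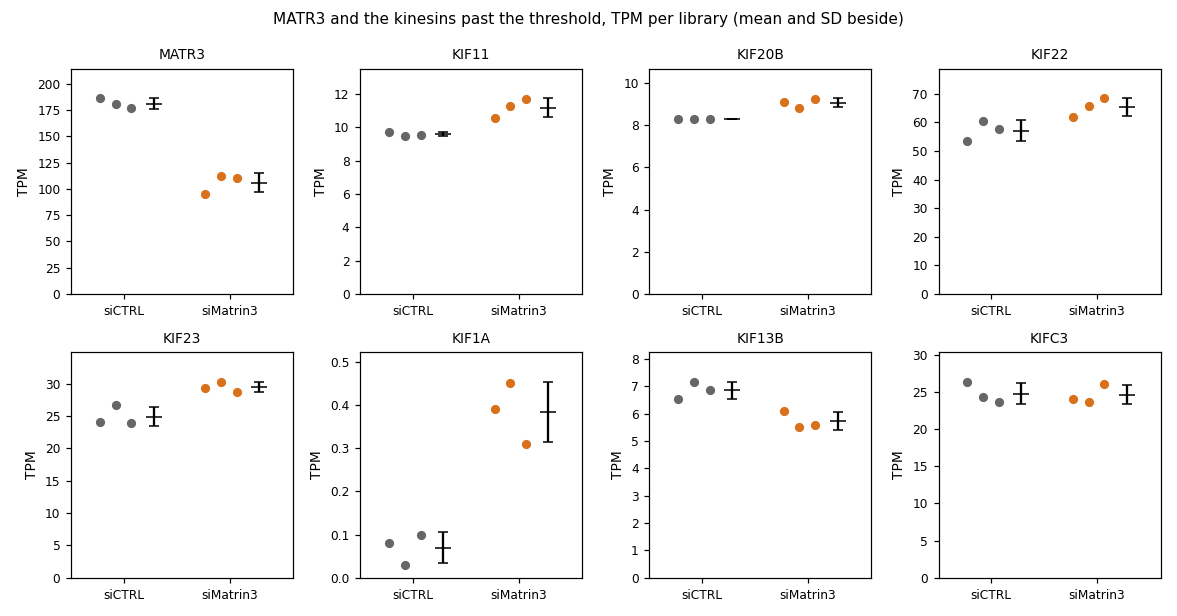
TPM of MATR3 and of the 7 kinesins past the threshold in each library (grey siCTRL, orange siMatrin3, 3 libraries a group, with the mean and SD beside the points), on axes that start at 0. KIF11, KIF20B, KIF22, KIF23 and KIF1A are higher and KIF13B lower in all siMatrin3 libraries, and the KIFC3 groups overlap at 23.68 to 26.38 and 23.72 to 26.13 TPM.

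The transport kinesins showed calls in both directions, with 1 of 16 higher (6.25%, against 5.05% of all genes) and 2 lower (12.5%, against 5.97%). The higher call was KIF1A, which passed the filter on low counts through the siMatrin3 libraries. The remaining 13 did not pass the threshold. The median log2 fold change of the 16 was -0.07, against -0.0011 over all genes tested. Of the 16 estimates 12 were below 0, as were 8447 of 16786 genes. The SD of the class median over the siCTRL libraries, as log2 CPM minus each gene's siCTRL mean, was 0.062. The estimates of KIF3A, KIF5B, KIF16B and KIF21A, none of them called, changed sign in 2 to 6 of the alternatives. In CPM 6 members lay below siCTRL in all siMatrin3 libraries, namely KIF3B, KIF3C, KIF5C, KIF13A, KIF13B and KIFC3, and 2 lay above, KIF1A and KIF1C, where 15.5% of all genes were separated in each direction. The count of 3 calls fell to 1 without siMatrin3 replicate 3.

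In the kinesin-3 group, KIF1A, the motor of synaptic vesicle precursors in axons, rose. KIF1A (ENSG00000130294) held 23, 5 and 9 expected counts in siCTRL and 62, 32 and 52 in siMatrin3, which were 0.08, 0.03 and 0.10 TPM and 0.39, 0.45 and 0.31 TPM. The groups did not overlap, but no library reached 1 TPM. Its log2 fold change was 1.99 (SE 0.391, edgeR adjusted p = 0.0112), the widest SE of the family. KIF1A passed the filter on low counts through the siMatrin3 libraries, where it is high, so its call is a description and adds no weight to the counts of called members. Its adjusted p was 0.0573 without siCTRL replicate 3 and 0.0543 without siMatrin3 replicate 3, over a range of 1.74e-07 to 0.0573 in the 15 alternatives that tested it. A filter of 1 CPM in 3 libraries removed it, which left 6 called members, of which 2 were transport kinesins, both lower. Of 7 neuronal markers matched, SYT1 alone reached 1 TPM and was lower in siMatrin3 (log2 fold change -0.28, edgeR adjusted p = 0.0109), NEFM was at 0 in all libraries, and summed levels were 26.9 to 27.8 TPM in siCTRL and 21.6 to 24.5 in siMatrin3.

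KIF13B, also called GAKIN, carries the polarity protein DLG1 and phosphoinositide cargo. KIF13B (ENSG00000197892) was at 6.52, 7.15 and 6.87 TPM in siCTRL and at 6.10, 5.50 and 5.58 TPM in siMatrin3. All siMatrin3 libraries were lower, with replicate 1 of each group closest to the other group. It fell by 0.24 on the log2 scale (SE 0.0431, edgeR adjusted p = 0.00772), from 6.85 ± 0.316 to 5.73 ± 0.326 TPM. Without siMatrin3 replicate 3 its adjusted p was 0.0507, and over all alternatives it ran from 0.000152 to 0.149. KIF1C, which moves integrin-bearing vesicles and mRNAs, was the most abundant member of the group at 52.67, 58.66 and 57.37 TPM in siCTRL and 61.41, 64.69 and 63.88 TPM in siMatrin3. Those TPM did not overlap, yet the log2 fold change in counts was 0.09 (SE 0.0399, edgeR adjusted p = 0.176), and 0.19 with the transcript length offset (adjusted p = 0.0539, the lowest of its alternatives, which reached 0.401). KIF1B, KIF13A and the endosomal motor KIF16B had log2 fold changes of -0.07, -0.09 and -0.04 (edgeR adjusted p = 0.363, 0.196 and 0.835).

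KIF5B, the ubiquitous heavy chain of conventional kinesin (kinesin-1), was at 59.64, 51.67 and 52.93 TPM in siCTRL and 55.97, 53.71 and 51.71 TPM in siMatrin3. The groups overlapped almost fully, and the log2 fold change was -0.0020 (SE 0.0604, edgeR adjusted p = 0.989). KIF5C fell short of the threshold at -0.27 (edgeR adjusted p = 0.0655), with 1.83 ± 0.0954 and 1.48 ± 0.0971 TPM, and KIF5A was at -0.07 (adjusted p = 0.607). Of the kinesin-2 motors, which work with KIFAP3 in ciliary and vesicle transport, KIF3B had a log2 fold change of -0.11 (edgeR adjusted p = 0.134), KIF3C of -0.29 (0.166) and KIF3A of 0.04 (0.735). KIF3B levels were 16.2 ± 0.578 and 14.7 ± 0.182 TPM. KIF21A and KIF21B, which restrain microtubule growth, were at -0.02 and -0.12 (edgeR adjusted p = 0.884 and 0.202).

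KIFC2 and KIFC3 have their motor at the carboxyl end and move toward minus ends. KIFC2 was at 49.15, 54.00 and 50.12 TPM in siCTRL and 57.04, 53.69 and 59.27 TPM in siMatrin3, where replicate 2 fell inside the siCTRL range. Its log2 fold change was 0.16 (SE 0.0641, edgeR adjusted p = 0.14). KIFC3, known from adherens junctions and Golgi positioning, gave different results on different scales. KIFC3 (ENSG00000140859) was at 40.8, 38.2 and 39.8 CPM in siCTRL and 33.5, 32.2 and 34.8 in siMatrin3, and these did not overlap. Its counts fell by 0.24 on the log2 scale (SE 0.0443, edgeR adjusted p = 0.00829). Its TPM were 26.38, 24.27 and 23.68 against 24.10, 23.72 and 26.13, with means of 24.8 ± 1.42 and 24.7 ± 1.3 that lay within the spread of each group.

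The weighted transcript length, which RSEM averages over a gene's transcripts by their estimated abundance, lay between these scales. For KIFC3, with 36 listed transcripts, it was 2069.28, 2128.51 and 2235.07 bases in siCTRL and 1854.07, 1827.21 and 1800.29 bases in siMatrin3. The siMatrin3 lengths were all shorter, at means of 2144 ± 84 and 1827 ± 26.9 bases. The log2 difference in length was -0.23 (SE 0.0319) with an unadjusted p of 0.000789 in limma, rank 24 of 11984 genes, and an adjusted p of 0.384. With the length as an offset in edgeR the log2 fold change of KIFC3 was 0.01 (SE 0.0609, adjusted p = 0.953), so its fall was in counts and not in TPM. Of the 32 members tested for length 0 passed an adjusted p under 0.05 in limma, which 1 gene of 11984 did (0.00834%). At an unadjusted p under 0.05 there were 4 members, KIFC3, KIF9, KIF1C and KIF1B, against 6.09% of all genes. Their log2 differences were all toward shorter transcripts, at -0.20 for KIF9, -0.10 for KIF1C and -0.03 for KIF1B. This direction was not compared with that of all genes at the same cut. KIF9 had TPM of 6.32 ± 0.72 and 7.58 ± 1.07 and a log2 fold change in counts of 0.02 (edgeR adjusted p = 0.925). Which transcripts made up these lengths was not analysed here.

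**Figure D3:**
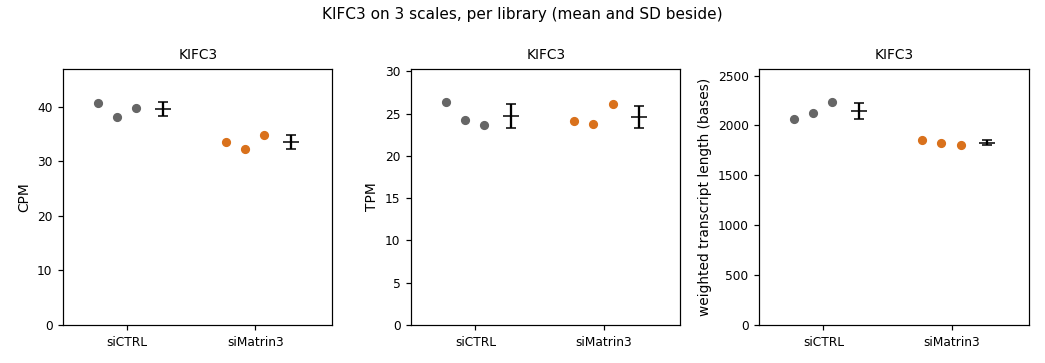
KIFC3 in each library as CPM, as TPM and as weighted transcript length in bases (grey siCTRL, orange siMatrin3, 3 libraries a group, mean and SD beside the points; axes start at 0). CPM and length are lower in all siMatrin3 libraries, and TPM overlap.

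The cilium and other kinesins showed no call in either direction among 7 members in edgeR, against 11.0% of all genes, and 0 were called with DESeq2. At an unadjusted p under 0.05 there was 1 member, against 4364 of 16786 genes. That member was KIF24, which holds back cilium formation at the mother centriole, at 2.47 ± 0.159 and 2.92 ± 0.186 TPM with a fitted change of 0.23 on the log2 scale (SE 0.0721, edgeR adjusted p = 0.0677). KIF7, the Hedgehog pathway regulator of the cilium tip, was under 1 TPM in all libraries, with a fitted change of -0.23 on the log2 scale (SE 0.235, edgeR adjusted p = 0.582). Its relative KIF27 was at 0.18 (adjusted p = 0.361). KIF26A, a kinesin that binds microtubules without known motility, was level at 5.16 ± 0.159 and 5.17 ± 0.262 TPM, and KIF26B and KIF12 had log2 fold changes of -0.29 and -0.22 (edgeR adjusted p = 0.233 and 0.339).

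Seen per library, the mitotic class was separated between groups, the transport class met at its edge and the cilium class overlapped. The median over the 13 genes of log2 CPM minus the siCTRL mean was -0.02, 0.03 and 0.0020 in siCTRL and 0.06, 0.16 and 0.18 in siMatrin3. Replicate 1 was the lowest of the siMatrin3 libraries. The same median over the transport kinesins was 0.07, -0.03 and -0.04 in siCTRL and -0.04, -0.10 and -0.09 in siMatrin3, where replicate 1 of siMatrin3 and replicate 3 of siCTRL nearly coincided. Summed TPM went from 268 ± 10.1 to 293 ± 11.2 for the mitotic and from 272 ± 4.38 to 277 ± 2.51 for the transport kinesins. The summed transport TPM and the median fold change thus differed in direction, and the abundant KIF1C and KIFC2 were among the 4 members with estimates above 0.

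**Figure D4:**
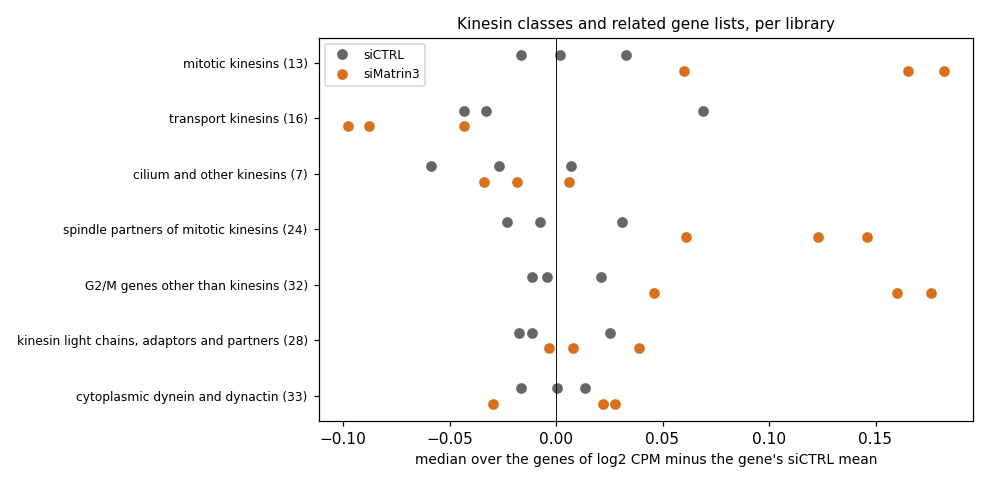
Median over the genes of a list of log2 CPM minus each gene's siCTRL mean, for each library (grey siCTRL, orange siMatrin3), with the number of genes in brackets. The siMatrin3 libraries lie right of all siCTRL libraries for the mitotic kinesins, their spindle partners and the G2/M genes, with siMatrin3 replicate 1 closest to siCTRL in each.

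Genes that work with the mitotic kinesins were described from a list of 24 spindle partners. Of these 2 rose, 0 fell and 22 did not pass the threshold (8.33% higher, against 5.05% of all genes), with a median log2 fold change of 0.11 and 22 estimates above 0. CEP55, which brings the abscission machinery to the midbody, stood at 19.6 ± 0.382 TPM in siCTRL and rose to 22.3 ± 1.26 (0.22 on the log2 scale, edgeR adjusted p = 0.0124). MAPRE1, which encodes the plus-end protein EB1, stood at 65.9 ± 1.7 TPM and rose to 72.8 ± 2.59 (0.16, edgeR adjusted p = 0.0333). Of the 32 G2/M genes other than kinesins 7 rose (21.9%), 0 fell and 25 did not pass the threshold, with a median of 0.13 and 28 estimates above 0. The 4 with the smallest p were the mitotic inhibitor kinase WEE1 (log2 fold change 0.41, edgeR adjusted p = 0.000648) and the spindle checkpoint kinases BUB1B (0.24, 0.00485), TTK (0.25, 0.00927) and BUB1 (0.20, 0.02). Per library the G2/M median was -0.01, 0.02 and -0.0043 in siCTRL and 0.05, 0.16 and 0.18 in siMatrin3, close to that of the mitotic kinesins. The share of cells in each phase was not measured in these files, its part in the result was not tested, and in bulk RNA more cells of a phase and more RNA per cell cannot be told apart. The count of 7 was 13 without replicate 1 of both groups and 14 without siMatrin3 replicate 1, and 5, 4, 3, 3 and 3 without siCTRL replicates 1, 2 and 3 and siMatrin3 replicates 2 and 3. The spindle partner count of 2 was 4 without siMatrin3 replicate 1, 0 without siMatrin3 replicate 2, 1 without each of the others and 8 with DESeq2.

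The partners of the transport kinesins changed little. Of 28 light chains, adaptors and partners 1 fell and 0 rose (3.57% lower, against 5.97% of all genes), with a median log2 fold change of -0.0003. RAB3IP, an exchange factor for the vesicle GTPase RAB8, fell to 8.74 ± 0.529 TPM from 11.0 ± 0.432 (-0.45 on the log2 scale, edgeR adjusted p = 0.000633). Of 33 genes of cytoplasmic dynein and dynactin, the minus-end motor that opposes most kinesins, 1 rose and 3 fell (3.03% and 9.09%, against 5.05% and 5.97% of all genes). The light chain DYNLL2 (log2 fold change -0.38, edgeR adjusted p = 0.00143), the cargo adaptor HOOK1 (-0.18, 0.0164) and the regulator NDE1 (-0.17, 0.0398) fell, and the light chain DYNLL1 rose (0.17, 0.0479). The paralogs DYNLL1 and DYNLL2 thus moved apart, from 171 ± 6.81 to 191 ± 7 TPM and from 17.5 ± 1.19 to 13.3 ± 0.365 TPM. The calls of this list were not stable in either direction. The 3 lower calls became 1 with limma on TPM and with the length offset, and 4 with upper quartile scaling. They were also 1 without siCTRL replicate 1, siCTRL replicate 2 or siMatrin3 replicate 3. No gene of this list was called higher with limma on TPM, the length offset or upper quartile scaling. The same held without siCTRL replicate 1, siCTRL replicate 3, siMatrin3 replicate 2 or siMatrin3 replicate 3. The dynein count of 4 was 1 without siCTRL replicate 1 or siMatrin3 replicate 3 and 2 without siCTRL replicate 3, and the count of 1 for the partners was 2 without siMatrin3 replicate 1.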

How the data were processed

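The 6 poly(A) libraries of HCT116 were grouped by the labels into 3 siCTRL and 3 siMatrin3. According to the methods, stranded libraries were read in pairs, aligned with STAR and quantified with RSEM. STAR 2.5.1, cutadapt, RSEM and hg19 are listed in the submitters' processing notes. The authors deposited expected counts, which divide shared reads among transcripts by estimation, and TPM, scaled by the authors for length and depth. The deposited tables also give a transcript length per gene. The strand setting of the counting is not given in the sources used here, and 18 of the 36 members, KIF22, KIF23, KIF13B and KIFC3 included, overlap an exon of a gene on the opposite strand in GENCODE 44, and 2, KIF1B and KIF2A, one on the same strand. Symbols were found for 88.3% of the genes, and those without took 0.941% of counts.

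Rounded expected counts that passed filterByExpr were scaled (TMM) and compared by the two-sided quasi-likelihood test of edgeR 4.0.16, without covariates, in R 4.3.3, with Benjamini-Hochberg adjustment over 16786 genes. The study used DESeq2, and DESeq2 1.42.0 was an alternative. The SE given with an edgeR fold change is its absolute log2 value divided by the square root of the test's F statistic. Log2 CPM used a prior count of 2. Length was tested with limma 3.58.1 (log2 length) where a gene had 2 or more transcripts and 50 or more expected counts per library. Promoters came from RefSeq (GRCh38.p14). The steps were tested on simulated data.

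The members and gene lists were chosen with earlier results of these data known, so lists are described by counts and medians with no test. Values in every library were given for members past the threshold and the 6 most abundant others, and up to 4 called genes with the smallest p were named for each other list. Replicate numbers were taken from the labels. Alternatives were other scalings and filters, limma on log2(TPM + 0.1) and on log2(TPM + 1), DESeq2, a transcript length offset, the replicate number as a block, an adjusted p under 0.01, other count minimums for length, and leaving out each library. Leaving out replicate 1 of both groups was added after seeing the data. The p-values reflect the spread among libraries of 1 group. Depth was 40808173 to 54185650 expected counts a library, and the SE of members ran from 0.0379 to 0.391 on the log2 scale.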

Additional observations from a re-analysis of the deposited data

How the results depend on the processing

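The median log2 fold change kept its sign in all alternatives for the mitotic kinesins (0.12 with all libraries) and for the transport kinesins (-0.11 to -0.04 when a library was left out), and the cilium and other kinesins had 0 calls in all of them. Among single members, 528 of the recomputed values stayed on their side of the threshold, among them uncalled estimates near 0 that changed sign, 36 lost a call and 9 gained one. The 1 called value that turned was KIFC3 at 0.0096 with the transcript length offset, which removes the change in length. KIF18B and KIF5C gained a call with the block, KIF20A and KIFC1 without siMatrin3 replicate 1, KIF3C and KIFC2 with no filter. Depth limits KIF1A, KIF7 and KIF26B, all under 1 TPM.

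Limma on log2(TPM + 0.1) and log2(TPM + 1) called 429 and 437 genes in place of 1849, and with either 1 member of 7, 0 mitotic and 1 transport kinesin, 0 partners, 0 spindle partners, 1 dynein and 1 G2/M gene. The length offset gave 706 genes, 3 members, 2 mitotic, 1 transport, 0 spindle partners, 1 dynein and 3 G2/M genes. An adjusted p under 0.01 left 561 genes, 3 members, 1 mitotic kinesin, 0 spindle partners, 1 dynein, 3 G2/M genes and 0 genes for length. Upper quartile scaling gave 2 mitotic kinesins, 2 partners, 1 spindle partner and 4 G2/M genes, and no filter gave 5 transport kinesins, 2 partners and 15 G2/M genes. A filter of 1 CPM gave 2 partners and a minimum of 20 counts gave 2 genes for length. DESeq2 gave 8 spindle partners and 13 G2/M genes. Without replicate 1 of both groups there were 1216 genes, 1 dynein and 13 G2/M genes.

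Leaving out a library gave 759 to 1599 genes, 2 to 8 members, 1 to 5 mitotic and 1 to 4 transport kinesins, 1 to 2 partners, 0 to 4 spindle partners, 1 to 3 dynein and 3 to 14 G2/M genes, and 0 to 2 for length. The medians ran from 0.0909 to 0.145 for the mitotic kinesins. The cause of these shifts was not tested. Libraries with the same replicate number were not treated as pairs in the main fit. Their deviations correlated at 0.177, 0.0896 and 7.21e-05, and those of libraries with different numbers at -0.145 to 0.0641. These values do not settle whether the libraries were paired. The replicate block gave 2716 genes, 2 partners, 5 spindle partners, 15 G2/M genes and 0 genes for length.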
